A study of Bos indicus x Bos taurus with 11 samples.

Results

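The contractile genes of myofibroblasts were followed in cultured skin fibroblasts of bovine fetuses. They were 10 genes chosen by name: ACTA2, ACTG2, TAGLN, CNN1, CNN2, CNN3, MYL9, TPM1, TPM2 and CALD1. All 10 were found among the 27398 rows of the table of total counts, and 7 of the 10 (all but CNN2, MYL9 and TPM1) among the 9716 rows of the table of allelic reads. The LOS group held 6 fetuses (3 males, 3 females) conceived by assisted reproduction whose body weight exceeded the 97th centile of controls, the definition of large offspring syndrome in this study. The control group (CON_B) held 5 fetuses (3 males, 2 females) conceived by artificial insemination. Overgrowth and mode of conception thus differ together between the groups and cannot be told apart, also where an effect of LOS is named below. Every fetus was a day 105 hybrid of zebu cattle of the Brahman breed and taurine cattle of the Angus breed, and each gave 1 primary culture grown in medium with fetal bovine serum and 1 library of RNA depleted of ribosomal RNA. The passage number of the cultures was not stated in the labels. The series asks how the transcriptome of LOS fibroblasts compares with that of controls.

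A myofibroblast is a fibroblast that has built contractile stress fibres, and smooth muscle alpha-actin (ACTA2) is its usual marker. In a stress fibre, myosin pulls on actin filaments along which tropomyosin, caldesmon, calponin and transgelin are laid. Many of these genes are switched on together by serum response factor (SRF) with its myocardin-related coactivators, in response to transforming growth factor beta, to serum and to tension on a stiff surface, and cultured skin fibroblasts commonly carry them.

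Total expected counts (estimated reads per gene, not normalised) ran from 12084822 to 19297167 in LOS libraries and from 14147031 to 19272354 in controls. Levels are given as CPM, expected counts scaled to a common library size after TMM normalisation. Fibroblast markers were abundant, the 10 of them summing to between 52897 and 67374 CPM in LOS and to between 56040.0 and 64900.0 CPM in controls. Endothelial markers summed to 7.19 to 12.1 CPM in LOS and 5.68 to 16.6 CPM in controls, and skeletal muscle markers to 3.53 to 16.6 CPM and 3.69 to 15.5 CPM. Desmin (DES), which defines mature muscle cells, lay between 0 and 0.282 CPM over all 11 libraries, and the smooth muscle coactivator MYOCD between 0 and 0.227 CPM. In such bulk RNA, fewer contractile cells and less contractile RNA per cell cannot be told apart.

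The contractile genes did not separate LOS from control cultures. They differed far more from fetus to fetus than between the groups, and most of them did so together. ACTA2 differed 3.91-fold between its highest and its lowest library, ACTG2 7.64-fold and CNN1 8.48-fold, whereas CNN3 differed 1.39-fold. The high and the low cultures were found in both groups.

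ACTA2 lies on chromosome 26 (10626812 to 10679430, minus strand, build ARS-UCD1.2) and had 31086 to 81718 expected counts per library. Its lowest, median and highest LOS libraries had 2420.0, 2879 and 5997 CPM, and the 5 controls had 3591, 1535, 5377, 1964 and 4309 CPM. The groups overlapped over most of their range, the lowest library being a control and the highest an LOS culture. The mean was 3501 ± 1420 CPM in LOS (SD, n = 6) and 3355 ± 1605 CPM in controls (SD, n = 5), a log2 fold change of 0.12 ± 0.35 (SE) with a 95% interval from -0.64 to 0.88. The opposite strand of its span holds FAS, at 15.7 to 38.0 CPM, and it is unknown whether the counting used strand.

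ACTG2, the smooth muscle gamma-actin best known from the gut wall, is on chromosome 11 (10737086 to 10761240). It had 119, 243 and 508 CPM in the lowest, median and highest LOS libraries, against 151, 75.7, 473, 66.4 and 364 CPM in the 5 controls. Of the controls, 3 lay at or below 151 CPM and 2 at or above 364 CPM, and the 2 lowest of all 11 libraries were controls 2 and 4 while the highest was LOS 6. The log2 fold change of 0.42 ± 0.51 (SE) was the largest among the 10 genes and had the widest interval, from -0.69 to 1.54.

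**Figure D1:**
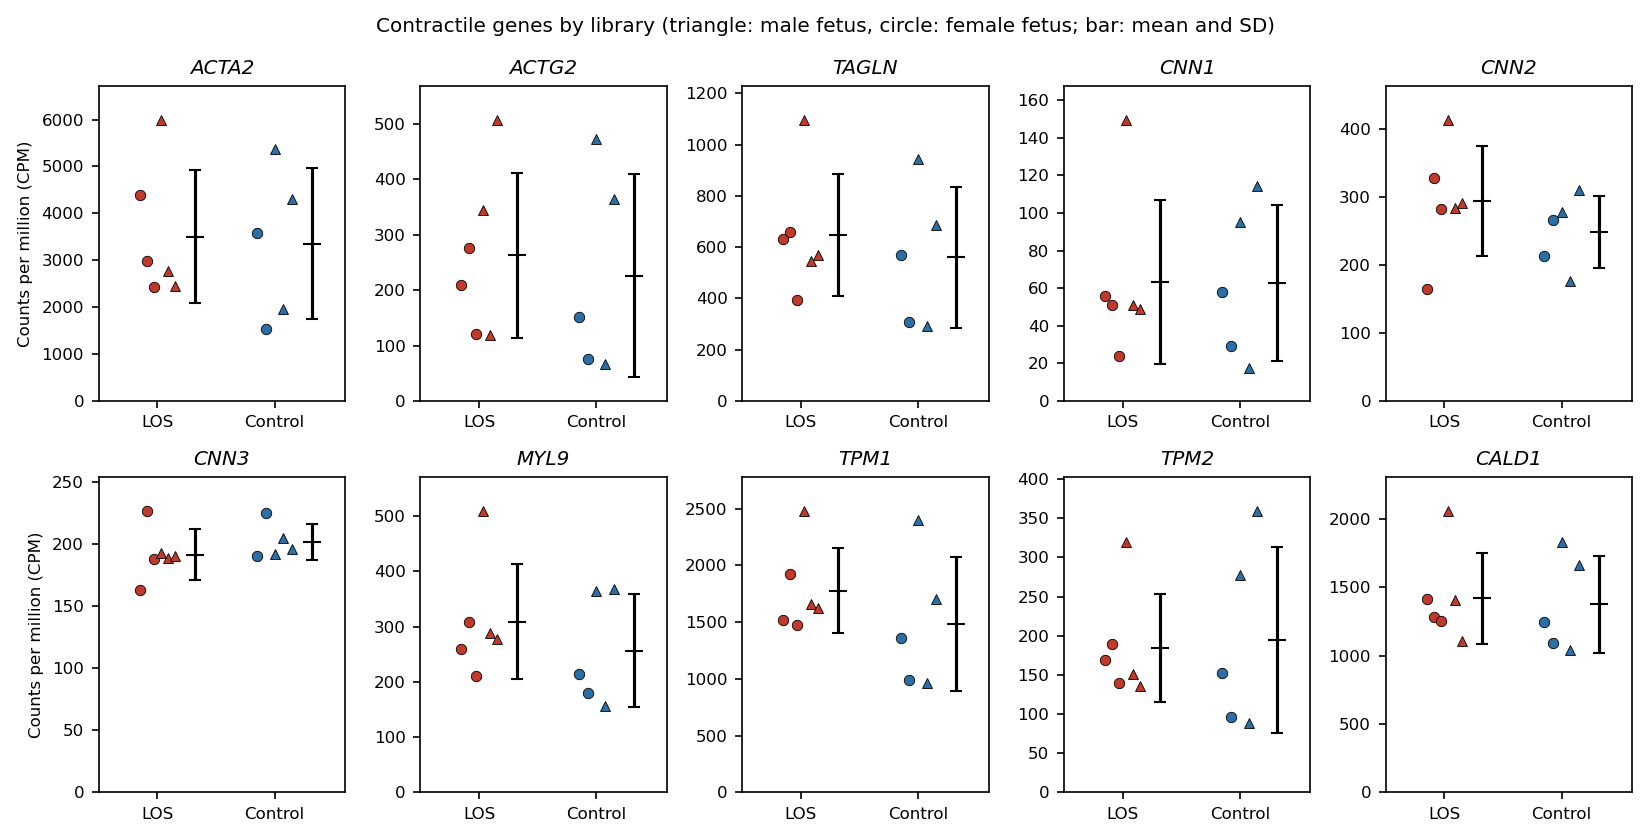
Level of each contractile gene in CPM (y axis, from 0) in the 6 LOS libraries (red) and the 5 control libraries (blue), with triangles for males and circles for females, and with the group mean and SD as a bar beside the points. The groups overlap in all 10 panels, and LOS 4 is the highest LOS library in 8 of them (all but ACTG2 and CNN3).

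Transgelin (TAGLN, also called SM22), an actin-binding protein, is encoded on chromosome 15 (27889556 to 27894949). Its LOS libraries had 392.4, 599 and 1097 CPM (lowest, median, highest), and the controls 568.5, 307, 944, 292 and 686 CPM. The log2 fold change was 0.27 ± 0.31 (SE), so that the difference was smaller than its standard error.

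The calponins bind actin and restrain the myosin motor. Basic calponin (CNN1, chromosome 7, 15883452 to 15891280) marks differentiated smooth muscle and had 24.1, 50.9 and 149.6 CPM in LOS (lowest, median, highest) and 58.0, 29.5, 95.2, 17.7 and 115 CPM in controls. The means were nearly equal, 63.4 ± 43.7 CPM in LOS (SD, n = 6) and 63.0 ± 41.5 CPM in controls (SD, n = 5). CNN2 (chromosome 7, 43535158 to 43543274), a calponin also found in cells other than muscle, had 164, 287 and 413 CPM in LOS and 213, 266, 277, 176 and 309.9 CPM in controls. CNN3 (chromosome 3, 48568965 to 48599127), the acidic and most widely expressed calponin, had 163, 189.9 and 227 CPM in LOS and 190.4, 225, 192, 205 and 196 CPM in controls. It was the steadiest of the 10 genes, and the only one with a negative fold change (-0.077 ± 0.092, SE; 95% interval -0.28 to 0.12).

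The regulatory light chain of smooth muscle and non-muscle myosin is encoded by MYL9 (chromosome 13, 65647900 to 65655870). MYL9 had 211, 283 and 509 CPM in LOS (lowest, median, highest) and 215, 179.5, 364, 156 and 368 CPM in controls, with a log2 fold change of 0.33 ± 0.24 (SE; 95% interval -0.20 to 0.86). In 5 of 6 LOS cultures it was above the control median, as were CNN2 and CALD1. That count was 4 of 6 for ACTG2, 3 of 6 for TAGLN and TPM2, 2 of 6 for ACTA2 and 1 of 6 for CNN1 and CNN3.

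Tropomyosins coil along actin and gate its access to myosin. TPM1 (chromosome 10, 46993263 to 47022966) had 1474, 1642 and 2478 CPM in LOS (lowest, median, highest), against 1364, 994, 2399, 964 and 1703 CPM in controls. All 6 LOS libraries lay above the control median, but 2 controls lay within the LOS range, and the log2 fold change was 0.31 ± 0.23 (SE; 95% interval -0.18 to 0.81). The row LOC112448453 overlaps TPM1 on the same strand and had 199 to 626 CPM, so reads may have been divided between the 2 rows. TPM2 (chromosome 8, 59856499 to 59864046) had 136, 160.0 and 319.8 CPM in LOS and 152, 96.5, 278, 89.2 and 359 CPM in controls (0.039 ± 0.35, SE), and the sign of this value turned with library sizes alone as the scaling (-0.011).

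Caldesmon (CALD1, chromosome 4, 98449568 to 98681120), an actin-binding brake on contraction, had 1109, 1345 and 2058 CPM in LOS (lowest, median, highest) and 1246, 1096, 1835, 1041 and 1666 CPM in controls. Its log2 fold change was 0.081 ± 0.18 (SE; 95% interval -0.32 to 0.48).

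With sex in the model, 9 of the 10 genes had a positive and 1 a negative log2 fold change in LOS, where 49.8% of all 16946 genes tested were positive. Without the sex term 8 of 10 were positive, and the plain mean of TPM2 was lower in LOS (184 against 195 CPM). The median log2 fold change was 0.19 over the 10 genes and -0.0007 over all genes. By the quasi-likelihood test of edgeR, 0 of the 10 passed (adjusted p from 0.932 to 0.993, Benjamini-Hochberg), where 0% of all genes passed. At an unadjusted p under 0.05 by edgeR there were also 0 of the 10, beside 4.44% of all genes, and DESeq2 and limma voom each called 0 of the 10. The groups overlapped in every one of the 10, while 0.0944% of all genes had each LOS library above each control and 0.136% each LOS library below. The count of 9 higher rested on single cultures: it was 5 of 10 without control 4, 5 of 10 without LOS 4, 6 of 10 without control 2 and 7 of 10 without LOS 1. The genes move together from culture to culture, so their shared direction is not 9 separate observations.

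**Figure D2:**
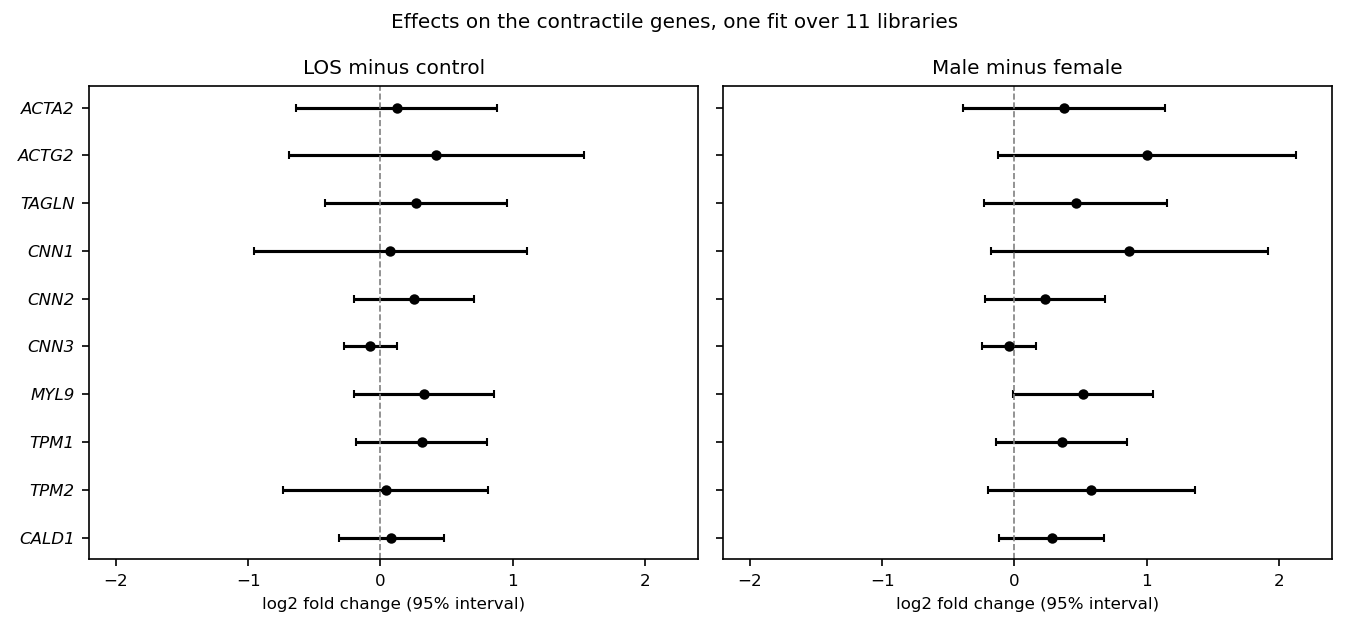
Log2 fold change of each contractile gene (points) with its 95% interval (bars), LOS minus control on the left and male minus female on the right, from a model over 11 libraries with sex and group as terms. Every interval in both panels crosses 0, the nearest to doing otherwise being MYL9 in males against females (-0.011 to 1.05).

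The values of males were above those of females for most of the 10 genes, without passing the test. The log2 fold change of males against females was positive in 9 of the 10 genes (49.9% of all genes were higher in males) and the median was 0.42. At an unadjusted p under 0.05 by edgeR there were 0 of the 10, beside 3.3% of all genes. ACTG2 averaged 313 CPM in males and 166 CPM in females (1.00 ± 0.51, SE), CNN1 79.5 and 43.7 CPM (0.87 ± 0.47), and MYL9 327 and 235 CPM (0.52 ± 0.24, unadjusted p = 0.0543 by edgeR's quasi-likelihood test). The adjusted p from edgeR was 0.999 for each gene. None passed, beside 0.0472% of all genes. Leaving out control 4, a male culture with the lowest or second lowest value in 9 of the 10 genes (all but CNN3), brought 6 of the 10 to an unadjusted p under 0.05 by edgeR and 0 past the adjusted threshold. In that fit 1008 of 16756 genes had such a p, against 560 of 16946 with every library in, and leaving out any other single library gave 0 to 2 of the 10.

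The effect of LOS was also fitted within each sex, and the 2 genes with the largest difference between the sexes are given. ACTG2 averaged 324 CPM in LOS males against 301 CPM in control males (log2 fold change 0.10 ± 0.67, SE) and 202 CPM in LOS females against 113 CPM in control females (0.84 ± 0.78). TPM2 averaged 202 CPM in LOS males against 242 CPM in control males (-0.26 ± 0.47) and 166 CPM in LOS females against 124 CPM in control females (0.42 ± 0.53). The difference between these effects, males minus females, was -0.73 ± 1.02 for ACTG2 and -0.68 ± 0.70 for TPM2, and it passed for 0 of the 10 genes and 0% of all genes (edgeR's interaction test, adjusted p from 0.926 to 0.990 over the 10). The unadjusted p was under 0.05 for 0 of the 10 genes and 4.95% of all genes, and the effect was higher in males for 3 of the 10 genes and 48.5% of all genes. That count of 3 was 7 without control 3, 6 without LOS 6 and 2 to 5 without any other single library. With 2 control females the intervals were wide, from -2.24 to 0.88 for TPM2.

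What the genes did share was their rise and fall over individual cultures. Expressed relative to each gene's own mean over the 11 libraries, 9 of 10 genes were above it in LOS 4, 9 of 10 in control 3 and 10 of 10 in control 5, whereas 1 of 10 was above it in LOS 3, 1 of 10 in control 4 and 2 of 10 in control 2. The 10 genes together summed to 13560 CPM in LOS 4 and 12240 CPM in control 3, against 4805 CPM in control 2 and 4972 CPM in control 4. 

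**Figure D3:**
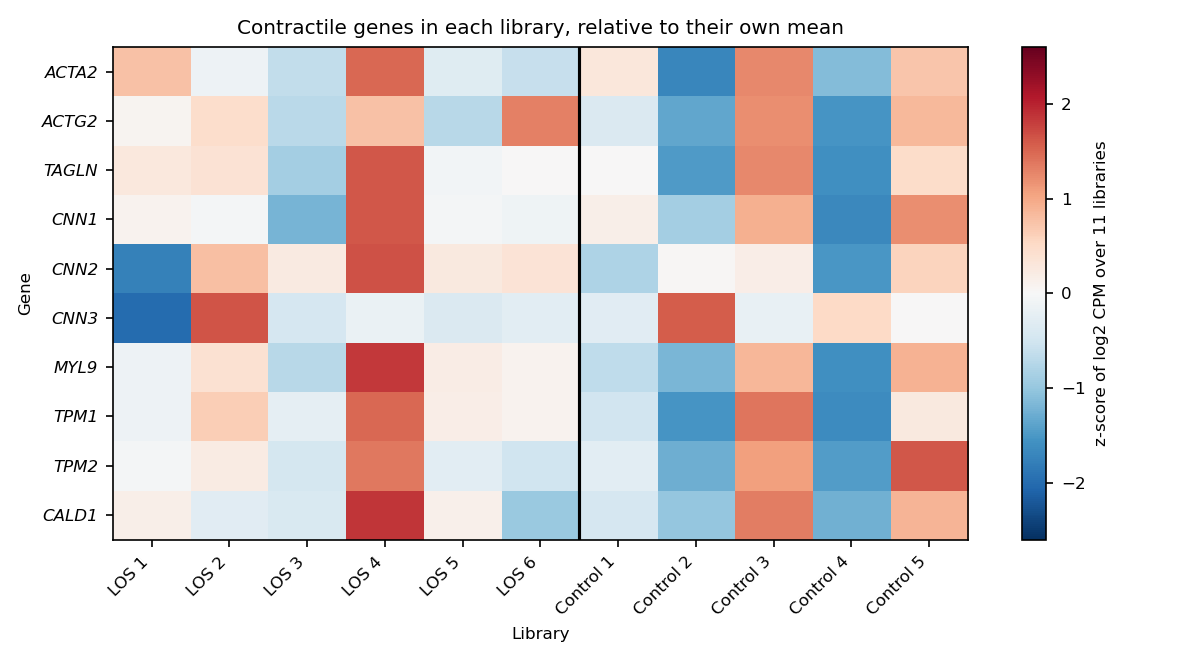
Level of each contractile gene (rows) in each library (columns, LOS left of the line and controls right of it) as a z-score of log2 CPM over the 11 libraries, red above and blue below the gene's own mean. LOS 4, control 3 and control 5 are red and control 2 and control 4 are blue in most rows, and CNN3 is the row that departs most from the others.

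The correlation of log2 CPM over the 11 libraries was computed for all 45 pairs of the 10 genes, with p-values from 100000 permutations adjusted over the 45 pairs. It passed an adjusted p of 0.05 in 29 pairs by Pearson's r and in 26 by Spearman's rho. No such count was made for pairs of other genes, so whether this covariation is particular to these 10 was not tested. ACTA2 and TAGLN were tied at r = 0.93 (permutation p = 4e-05, adjusted p = 0.000562) and rho = 0.94 (permutation p = 3e-05, adjusted p = 0.000675). Without the 2 libraries farthest from the median of ACTA2, r was 0.87. MYL9 and TPM1 had r = 0.94 and rho = 0.96, each with a permutation p of 1e-05, the smallest that the permutations can give (adjusted p = 0.00045), and r was 0.88 without the 2 farthest libraries. For TAGLN and CNN1 r was 0.93 (permutation p = 0.00011, adjusted p = 0.000675) and rho 0.90 (permutation p = 0.00041, adjusted p = 0.00205), with r = 0.86 without the 2 farthest libraries. Within the 6 LOS libraries alone these 3 pairs had r of 0.87, 0.97 and 0.98 (exact permutation p = 0.0153, 0.00139 and 0.0139) and rho of 0.89, 1.00 and 0.71 (exact permutation p = 0.0333, 0.00278 and 0.136).

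Leaving aside CNN2 and CNN3, a division made after the values were seen, the other 8 genes gave 28 pairs with r from 0.60 to 0.95 and a median of 0.88. The adjusted p passed in 27 of these 28 pairs by Pearson's r and in 24 by Spearman's rho, and all that failed were pairs with ACTG2. By rho ACTG2 failed with ACTA2 (rho = 0.64, permutation p = 0.041, adjusted p = 0.0659), TPM2 (rho = 0.64, permutation p = 0.0399, adjusted p = 0.0659) and CNN1 (rho = 0.60, permutation p = 0.0566, adjusted p = 0.0879). It failed by both measures with CALD1 (r = 0.60, permutation p = 0.0516, adjusted p = 0.0774; rho = 0.56, permutation p = 0.0754, adjusted p = 0.113). ACTG2 was the loosest of the 8, with r of 0.035 to 0.56 against the other 9 genes within LOS, where LOS 6 had its highest ACTG2 value (508 CPM) beside a TPM2 value (136 CPM) that was the lowest of the group. CNN2 passed with MYL9 (r = 0.70, permutation p = 0.0154, adjusted p = 0.0257; rho = 0.75, permutation p = 0.0114, adjusted p = 0.0213; r = 0.77 without the 2 farthest libraries) and TPM1 (r = 0.64, permutation p = 0.0304, adjusted p = 0.0471; rho = 0.75, permutation p = 0.0109, adjusted p = 0.0213; r = 0.63 without the 2 farthest libraries), but with 0 of 9 genes once the means of group and sex were removed. CNN3 passed with 0 of 9 genes, its r running from -0.50 with ACTA2 to 0.37 with CNN2. Removing the means of group and sex left 27 of 45 pairs past the adjusted threshold, so most of the pairs that passed did so within groups and sexes too. These permutations took the residuals as free values although group and sex had been fitted, so their p-values are somewhat too small. ACTA2 with ACTG2 passed there only narrowly (r = 0.67, permutation p = 0.0287, adjusted p = 0.0479).

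**Figure D4:**
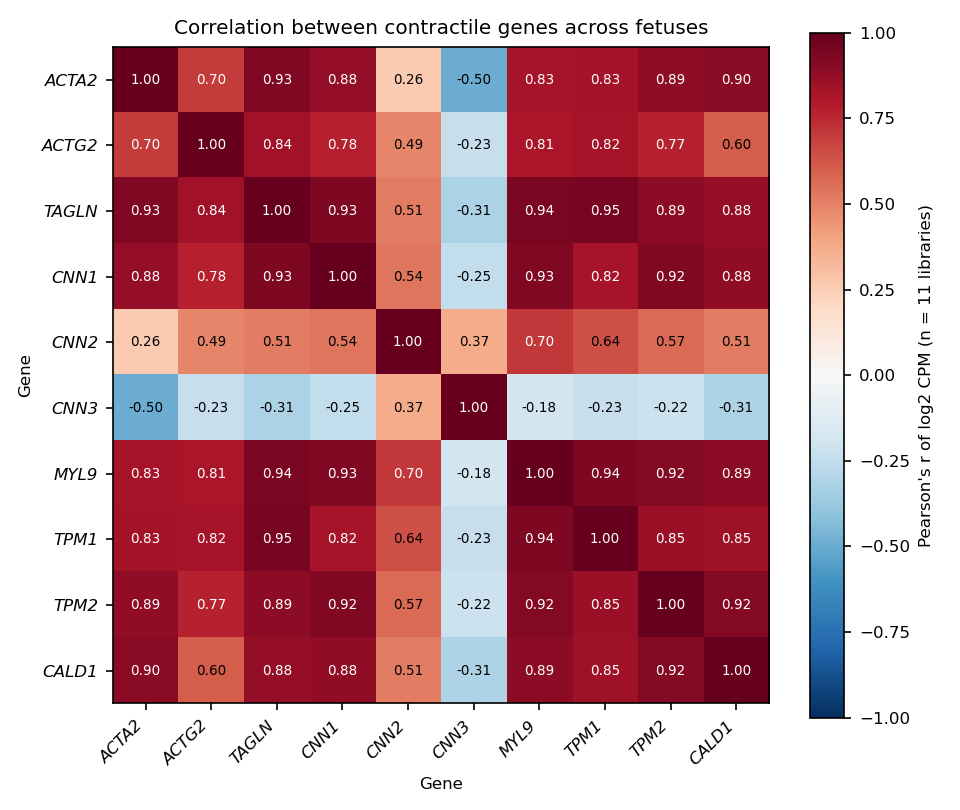
Pearson's r of log2 CPM over the 11 libraries for each pair of contractile genes (rows and columns), from blue at -1 to red at 1. Values among ACTA2, ACTG2, TAGLN, CNN1, MYL9, TPM1, TPM2 and CALD1 run from 0.60 to 0.95, and the CNN3 row is at or below 0 except with CNN2 (0.37).

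The values stood beside library depth as follows. Control 2 and control 4, both low, had 19272354 and 19014661 counts, but LOS 6, with 19297167, was near the middle (mean z-score -0.061). ACTA2 had r = -0.63 with total counts (permutation p = 0.0423, adjusted p = 0.198 over the 10 genes) and rho = -0.35 (permutation p = 0.285, adjusted p = 0.836), and r was -0.39 without the 2 farthest libraries. Of the 10 genes 9 had a negative r with depth, 7 of them from -0.63 to -0.41. CNN3 had a positive one (r = 0.55, permutation p = 0.0864, adjusted p = 0.198; rho = 0.68, permutation p = 0.0254, adjusted p = 0.254; r = 0.54 without the 2 farthest libraries). None passed the adjustment, and the part of depth in the shared variation was not tested further.

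The spread of most of these genes between cultures of the same group and sex was wide. The residual SD of log2 CPM, after the means of sex and group, was 0.66 for ACTA2, 1.03 for ACTG2, 0.97 for CNN1 and 0.68 for TPM2, against a median of 0.21 over 8858 genes with a mean of at least 10 CPM. These 4 genes stood at the 94.7th, 98.4th, 98.1st and 95.1st percentile of that spread, and CNN3 (0.14) at the 19.5th.

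The other 8848 genes of at least 10 CPM were ranked by the correlation of their log2 CPM with the mean z-score of the 10 contractile genes, and 4 of the nearest 8 encode parts of the actin and myosin machinery. These correlations over 11 libraries that share culture and depth are descriptions, with no test. MYL6, the essential light chain of non-muscle and smooth muscle myosin, had r = 0.96 and ran from 473 CPM in control 2 to 798 CPM in LOS 4. FLNA (filamin A, which crosslinks actin) and MYH9 (a non-muscle myosin heavy chain) each had r = 0.96, and DSTN (destrin, which severs actin filaments) had r = 0.93. The rest of the nearest 8 were RUVBL1 (0.96), a chromatin-linked ATPase, LPCAT2 (0.95), a phospholipid enzyme, SERTAD2 (0.93) and TSG101 (0.93), a sorting protein of endosomes. At the other end were the long noncoding RNA LOC112447846 (-0.92), the kinase gene MAP3K1 (-0.92), BUD13 (-0.89) and RMND5A (-0.89). With the means of group and sex removed, these 12 genes had r of 0.93 to 0.97 and of -0.95 to -0.89.

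Other genes of the pathway were taken from lists of named genes. Their counts in LOS against control, by the sign of the log2 fold change, are set beside all genes (49.8% positive, median -0.0007, 0% called). By edgeR's adjusted test 0 genes of any list passed. Many of these genes rise and fall with the contractile genes, so their shared signs are not separate observations. The counts of these lists were not repeated without single libraries. An unadjusted p under 0.05 by edgeR was found for 2 of 15 transforming growth factor beta input genes, 1 of 21 matrix and signalling genes and 1 of 7 smooth muscle genes. It was found for 0 genes of each other list named here, beside 4.44% of all genes. Of 12 tested genes for other actins, tropomyosins, light chains and myosins, 11 were higher and 1 lower in LOS (median log2 fold change 0.10), with cytoplasmic actin ACTG1 at 3377 CPM in LOS and 3014 CPM in controls (0.18 ± 0.14, SE). ACTB, the other cytoplasmic actin, followed the mean z-score of the contractile genes with r = 0.93 and the tropomyosin gene TPM4 with r = 0.92, and all 11 ranked genes of this list had a positive r (median 0.85, beside 0.059 over all ranked genes). Of 22 stress fibre and focal adhesion genes, 16 were higher and 6 lower (median 0.10), and 18 of 20 ranked followed the contractile genes with a positive r (median 0.78). ZYX, a tension-sensitive adhesion protein gene, had 377 CPM in LOS and 312 CPM in controls (0.29 ± 0.20). TNS1 of the same list went the other way, with 391 CPM in LOS and 438 CPM in controls (-0.21 ± 0.12). Its r with the mean z-score of the contractile genes was -0.41.

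On the side of their regulators, 9 of 12 tested genes for SRF and its partners were higher and 3 lower (median 0.11). SRF itself followed the contractile genes from culture to culture (r = 0.79 with their mean z-score), and the coactivator genes MKL1 and MKL2 had r of 0.51 and -0.086. Of the 12 ranked genes of this list 10 had a positive r (median 0.57). Over all 8848 ranked genes 4805 had one (median 0.059).

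For transforming growth factor beta input, 10 of 15 tested genes were higher and 5 lower (median 0.096). TGFB1, the ligand best known to induce myofibroblasts, had 67.0 CPM in LOS and 51.8 CPM in controls (0.39 ± 0.17; unadjusted p = 0.043 and adjusted p = 0.932 by edgeR) and followed the contractile genes with r = 0.83. THBS1, thrombospondin, which can activate the latent ligand, had r = 0.91, and the receptor genes TGFBR1 and TGFBR2 had r of 0.12 and -0.54. Of the 15 ranked genes of this list 9 had a positive r (median 0.43). TGFBR1 had 219.7 CPM in LOS and 159 CPM in controls (0.47 ± 0.15; unadjusted p = 0.00965 and adjusted p = 0.932 by edgeR). The ligand gene TGFB3 had 13.0 CPM in LOS and 19.7 CPM in controls (-0.60 ± 0.30; unadjusted p = 0.0695 and adjusted p = 0.932 by edgeR). Of 21 matrix and signalling genes of myofibroblasts, 15 were higher and 6 lower (median 0.15), with CYR61, a target of serum and tension signals, at 1001 CPM in LOS and 632 CPM in controls (0.65 ± 0.24; unadjusted p = 0.0203 and adjusted p = 0.932 by edgeR). The collagen I gene COL1A1 had r = 0.095 with the contractile genes, and 15 of the 21 ranked matrix and signalling genes had a positive r (median 0.18).

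Markers of mature smooth muscle and of pericytes, cells that also carry ACTA2, were checked in the same way. Of 7 tested smooth muscle genes, ACTG2 and CNN1 included, 6 were higher and 1 lower (median 0.35). SYNM, an intermediate filament gene, had 15.6 CPM in LOS and 9.76 CPM in controls (0.70 ± 0.29; unadjusted p = 0.0333 and adjusted p = 0.932 by edgeR). The 8 of that list outside the 10 genes summed to 89.1 to 157 CPM in LOS and 61.2 to 119 CPM in controls. LMOD1, a leiomodin that nucleates actin in smooth muscle, ran with the contractile genes (r = 0.91; 82.0 CPM in LOS 4 and 24.5 CPM in control 4), while the mean of the smooth muscle myosin gene MYH11 was 4.46 CPM over LOS and 7.14 CPM over controls. Of 6 tested pericyte genes 4 were higher and 2 lower (median 0.12), and the list summed to 341 to 747 CPM in LOS and 306 to 669 CPM in controls. Over the 11 libraries ANPEP ran from 159 to 554 CPM and CSPG4 from 109 to 259 CPM. By contrast, NOTCH3 and ABCC9 reached 21.9 and 22.3 CPM at most, RGS5 4.43 CPM and MCAM 1.91 CPM. Of 3 tested genes each, skeletal muscle markers were higher in 1 (median -0.05), keratinocyte markers in 0 (median -0.031) and endothelial markers in 0 (median -0.40), and the 1 tested leukocyte marker was higher (0.21). Keratinocyte markers summed to 2.38 to 24.4 CPM in LOS and 3.56 to 10.7 CPM in controls, and leukocyte markers to 1.13 to 1.81 CPM and 1.43 to 2.27 CPM. The highest keratinocyte sum was that of LOS 1, where CDH1 alone had 21.2 CPM. The part of such cells in the contractile values was not tested.

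The allelic table divides reads over heterozygous sites between the mother's and the father's allele. The labels do not say which breed was the dam, so parent and breed of an allele cannot be told apart, and whether mapping favoured one allele was not tested. Of the 7 contractile genes in that table, CNN1 had more reads from the maternal allele and ACTG2 more from the paternal allele, and the other 5 were not called. Among all 5700 genes tested, 20.5% were called unequal and 32.2% had an unadjusted p under 0.05, beside 2 of 7 and 3 of 7 of the contractile genes.

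CNN1 had a maternal share above 50% in all 11 libraries, as did 4.05% of the genes with allelic reads in every library. Its maternal share had a lowest, median and highest of 55.8%, 57.9% and 62.2% in LOS and was 60.4%, 58.5%, 52.1%, 52.6% and 62.9% in the 5 controls, on 135 to 442 allelic reads per library. The log2 ratio of maternal to paternal reads was 0.46 ± 0.076 (SE; edgeR's quasi-likelihood test, adjusted p = 8.7e-05), or 1542 maternal and 1115 paternal reads in all. ACTG2 was below 50% maternal in 9 of 11 libraries. Its maternal share was 35.7%, 44.2% and 65.2% in LOS (lowest, median, highest) and 33.2%, 36.7%, 40.6%, 41.3% and 51.6% in controls, with a log2 ratio of -0.44 ± 0.10 (SE; edgeR adjusted p = 0.00222). Its allelic reads were 0.605% to 12.3% of its expected counts, so the call rests on a small part of its reads. The library at 65.2%, LOS 2, had 23 allelic reads and a 95% Clopper-Pearson interval of 42.7% to 83.6%.

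ACTA2 was above 50% maternal in 10 of 11 libraries, counting LOS 5 with 525 maternal and 524 paternal reads, and below it in LOS 4, at 43.1% of 232 reads. Its log2 ratio of 0.18 ± 0.075 (SE) did not pass (edgeR adjusted p = 0.0897), and did without LOS 4 (0.23, adjusted p = 0.0269). Its allelic reads were 0.227% to 4.12% of its expected counts, so the share rests on a small part of its reads. CALD1 had by far the most allelic reads, 6215 to 14610 per library, and its maternal share stayed between 47.4% and 53.2% (log2 ratio -0.0097 ± 0.032). TAGLN lay between 37.6% and 52.6%, its lowest library being LOS 2, at 37.6% of 609 reads. TPM2 and CNN3 had as few as 8 and 6 allelic reads in a library, and their shares ran from 37.1% to 68.8% and from 28.0% to 65.0%.

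The maternal share did not differ detectably between the groups. In LOS and control cultures it averaged 58.2% ± 2.34 (SD, n = 6) and 57.3% ± 4.78 (SD, n = 5) for CNN1, 45.8% ± 10.7 and 40.7% ± 6.92 for ACTG2, and 52.0% ± 6.01 and 55.9% ± 4.48 for ACTA2. The change in the log2 ratio, LOS minus control, ran from -0.25 for CNN3 to 0.11 for ACTG2 over the 7 genes. By edgeR's test of allele by group 0 of 7 genes passed (adjusted p = 0.9995 for each, 0% of 5700 genes called), and 0 of 7 had an unadjusted p under 0.05, beside 4.32% of all genes.

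**Figure D5:**
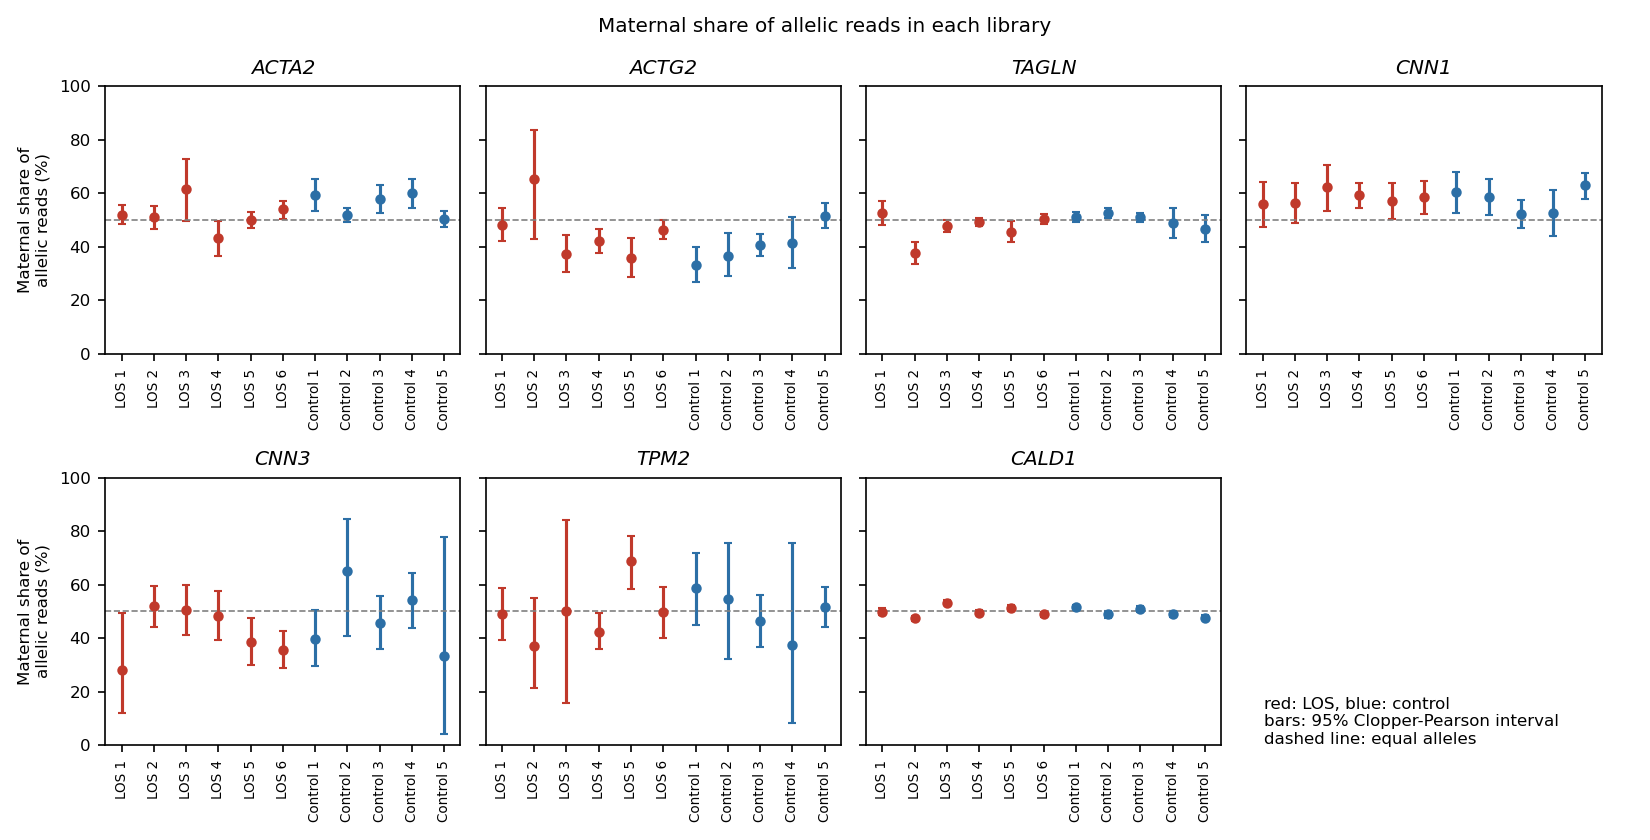
Maternal share of allelic reads in percent (y axis) for each library (x axis, LOS in red left of controls in blue) of the 7 contractile genes in the allelic table, with 95% Clopper-Pearson intervals that cover counting error only and a dashed line at equal alleles. All 11 CNN1 points lie above the line, 9 of 11 ACTG2 points lie below it, and the CALD1 points lie between 47.4% and 53.2%.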

How the data were processed

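The authors deposited a table of expected counts (estimated reads per gene, 71.2% of values whole with no tolerance), a table of whole read counts per parental allele, and a table of expected counts multiplied by the allelic share, per the file headers. The last was checked against that product for 77 values of the contractile genes, with 0 beyond a tolerance of 0.001, and was not used further. The submitters' processing notes name HISAT2 2.1.0, StringTie 2.1.4, Salmon 0.11.1 and the build ARS-UCD1.2, with no role or counting rule, and say nothing of strand. How reads shared between near-identical actin or tropomyosin genes were divided is likewise not given, so these values are uncertain to that extent; levels were not compared between genes.

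Expected counts were rounded and fitted for all rows in R 4.3.3 with edgeR 4.0.16 (TMM, filterByExpr, quasi-likelihood, sex and group as terms). SE is the log2 fold change divided by the root of F. The allelic fit had a term per library and took autosomal genes whose allelic reads averaged 20 or more and reached 10 in at least 3 libraries of each group. Log2 CPM used a prior count of 2. Correlations were tested in Python 3.11.15. Alternatives were DESeq2 1.42.0, limma 3.58.1 voom, other scalings and filters, a replicate block, a fit without sex and fits leaving out single libraries.

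The 10 genes, the lists and the tests were chosen with earlier results of these data known. All 10 are named, with up to 5 genes of smallest p per list and the 8 highest and 4 lowest genes by likeness. Some list genes were chosen after their values were seen (ACTB, TPM4, SRF, THBS1, TGFBR2, COL1A1, COL1A2, COL3A1, LUM, ANPEP, DES, MYOCD). The result of 1 gene list is not reported here. Each library is 1 fetus; the labels name no sequencing batch.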

Additional observations from a re-analysis of the deposited data

Results flagged for a closer look

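In LOS 4, a male culture, 4 of the 10 contractile genes stood apart from the other 5 LOS libraries by a gap that was large for the range of the group. CNN1 had 149.6 CPM there against 56.1 CPM in the next highest LOS library, and MYL9 509 against 309 CPM. TPM2 had 319.8 against 189.7 CPM, and CALD1 2058 against 1417 CPM. This check was made on 34 sets of libraries, of which chance singles out about 1 in 20 if values are normally distributed. Since the genes vary together, the 4 are not separate events. For the levels the check used CPM, on which a high value stands farther apart than on log2 CPM. It was not repeated on log2 CPM, the scale of the correlations and z-scores. LOS 4 was also the highest of all 11 libraries for CNN1, MYL9 and CALD1, whereas for TPM2 control 5 was higher, at 359 CPM.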

How the results depend on the processing

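With LOS against control, the count of genes called over the whole table was 0 under every scaling, filter and limma voom, 0 with each library left out and 5 with DESeq2. Whether the replicate number in the titles marks pairs cannot be told from these values. Same-numbered libraries deviated with correlations of -0.297 to 0.419, and the same-numbered control was the closest for LOS 1 and LOS 2 but not for LOS 3, 4 and 5. A fit with a replicate block, which leaves out LOS 6, called 0 genes and gave the 10 contractile genes a median log2 fold change of 0.58. TPM2 turned sign with library sizes alone (-0.011) and with no sex term (-0.081). With single libraries left out the log2 fold change ran from -0.11 to 0.30 for ACTA2, from -0.30 to 0.28 for CNN1, from -0.17 to 0.28 for TPM2 and from -0.048 to 0.18 for CALD1, each lowest without LOS 4. The male against female count was 22 with DESeq2 and 3 to 7 with single libraries left out, against 8; CNN3 ran from -0.096 to 0.023 there. The interaction count was 6 with DESeq2. The allelic share count was 0 or 1 with single libraries left out, and the change in the log2 ratio ran from -0.0018 to 0.32 for ACTG2, -0.0099 to 0.057 for CALD1, -0.051 to 0.15 for CNN1 and -0.33 to 0.079 for TPM2. The maternal to paternal log2 ratio ran from -0.029 to 0.0043 for CALD1 and from -0.10 to 0.11 for TPM2. CNN1 and ACTG2 stayed called unequal between alleles in all 12 alternative fits. The cause of these changes was not tested. At this number of cultures the 95% intervals of the LOS effect reached 1.54 for ACTG2 and 1.10 for CNN1.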

Other observations

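Of 10 general fibroblast markers, 3 had a positive and 7 a negative correlation with the mean z-score of the contractile genes over the 11 libraries (median -0.43, beside 0.059 over 8848 genes), given as a description. The receptor gene PDGFRB had the lowest value (-0.78), with 412 CPM in LOS 4, 422 CPM in control 3 and 320.1 CPM in control 5, the 3 cultures highest in the contractile genes, and 954 CPM in control 4 and 868 CPM in control 2, the 2 lowest. Other cultures departed from this order: PDGFRB had 388 CPM in LOS 6 (mean z-score of the contractile genes -0.061) and 446 CPM in LOS 3 (-0.54). The receptor gene PDGFRA (-0.61), decorin (DCN, -0.61), lumican (LUM, -0.55) and collagen III (COL3A1, -0.52) were also negative, whereas COL1A1 (0.095), COL1A2 (0.017) and vimentin (VIM, 0.044) were near 0. In LOS against control 3 of these markers were higher and 7 lower, with 0 called.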
